A study of Rattus norvegicus with 6 samples.

Results

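Selective autophagy depends on adaptor proteins that hold a cargo with one part of the molecule and the growing autophagosome with another. The genes described here encode 8 such receptors that are soluble rather than anchored in a membrane: Sqstm1 (p62), Optn (optineurin), Tax1bp1, Nbr1, Ncoa4, Tollip, Calcoco1 and Wdfy3 (ALFY). They were taken by gene symbol from a count table of 21026 symbols, and all 8 were present in it and passed the low-count filter. Most of them recognise ubiquitin on damaged mitochondria, protein aggregates or bacteria, and most carry a short motif that docks onto the lipidated Atg8 proteins (LC3 and GABARAP) of the autophagosome membrane. The kinase TBK1 phosphorylates several of them and strengthens that docking. In stromal cells of the marrow, autophagy is known to remove worn mitochondria and aggregates, and the study's title places mitophagy and DNA of the cell's own in the setting of bone healing in old age.

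The cells were mesenchymal stem cells of rat bone marrow, stromal cells that grow attached in culture, in a group labelled Young and a group labelled aged, with 3 libraries each that the labels number as biological replicates. Neither group carried a named allele, transgene or agent. The sources used here do not state strain, sex, age in months, passage or how many animals were used. P-values thus reflect the spread among these libraries alone, and part of that spread may be technical. Polyadenylated RNA was sequenced, and read counts per gene symbol were compared.

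Totals ran from 34638874 to 42479626 counts per library. Pairs of libraries within a group differed by more than sampling noise (chi-square over degrees of freedom of 3.11 to 10.6), and the 2 largest of these values, 8.67 and 10.6, both involved young replicate 2. Mitochondria-encoded transcripts took 1.36% of counts in that library, 1.07% and 1.12% in the other young ones and 4.25% to 4.46% in aged ones. All 10 stromal markers had counts. Their summed levels were 30889 to 31577 CPM (reads of a gene relative to the TMM-scaled library total) in young and 16770 to 16855 in aged libraries. Col1a1 alone averaged 19586 and 10932 CPM in young and aged libraries, and Vcam1 only 0.360 and 0.702. With TMM scaling, Thy1, Pdgfrb, Cd44, Col1a1, Prrx1 and Cxcl12 were lower in aged libraries. The log2 fold change of Cd44 was only -0.28, smaller in size than the 0.34 by which scaling by library size alone raised the median change. Nt5e and Itgb1 were higher, by 4.48-fold and 1.63-fold, and Eng and Vcam1 were not called with TMM scaling. Of 10 blood cell markers 8 were in the file, with summed levels of 92.9 to 95.9 CPM in young and 43.3 to 44.3 in aged libraries. Ptprc, the defining leukocyte gene, had 0 young counts and 0.00854 CPM on average in aged libraries. Other members moved in both directions: Cd14 averaged 80.7 and 21.0 CPM, Lyz2 10.4 and 0.173, and the macrophage receptor gene Csf1r 0.321 and 21.8, in young and aged libraries in turn. The part of these cells in the results below was not tested, and in such bulk samples fewer cells of a type and less RNA per cell cannot be told apart. Endothelial markers summed to at most 0.678 CPM and erythroid ones to at most 0.121 in any library.

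In aged cells 6 of the 8 receptor genes were higher and 2 were lower (7 and 0 when scaled by library size alone), and no gene's groups overlapped. Tax1bp1 rose 8.28-fold, Optn 2.84-fold and Ncoa4 2.78-fold. Tollip, Nbr1 and Sqstm1 rose by 1.34-fold, 1.30-fold and 1.25-fold, while Wdfy3 and Calcoco1 were 1.13-fold and 1.20-fold lower. All 8 passed the test (edgeR quasi-likelihood, Benjamini-Hochberg adjusted p under 0.05 over 14273 genes), but so did 86.4% of all tested genes, 44.7% of them higher and 41.8% lower. Groups that do not overlap were likewise common, at 87.5% of tested genes. A called rise of at least 2-fold was seen in 3 of the 8, and in 29.4% of tested genes. The median log2 fold change of the receptor genes was 0.40, against 0.05 over all tested genes. Only Tax1bp1, Optn and Ncoa4 lay above the upper quartile of all tested genes (1.30), with Tax1bp1 above 90.9% of them, Optn above 77.9% and Ncoa4 above 77.4%. Scaling by library size alone in place of TMM moved the median of all genes up by 0.34 on the log2 scale, and then 62.3% instead of 51.7% of all called genes were higher. The sizes below are therefore relative to the bulk of transcripts.

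**Figure D1:**
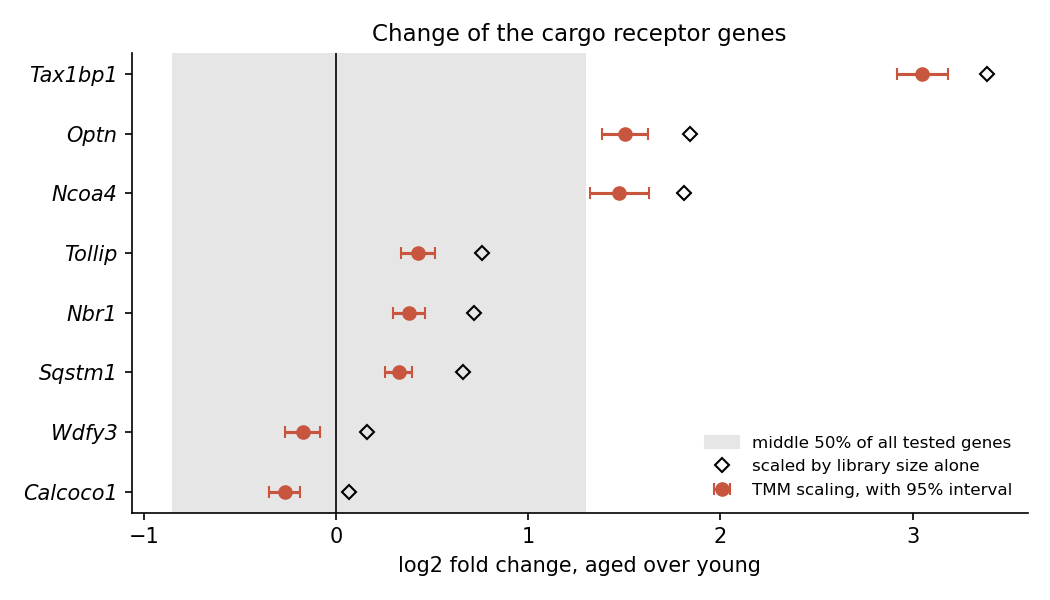
Log2 fold change of each receptor gene, aged over young. Filled circles are TMM-scaled edgeR estimates with 95% intervals, open diamonds the estimates scaled by library size alone, and the grey band spans the middle 50% of all 14273 tested genes. Tax1bp1, Optn and Ncoa4 lie to the right of the band, and Wdfy3 and Calcoco1 change sign between the scalings.

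The oligomer-forming ubiquitin receptors changed little with TMM scaling. With library size alone the log2 fold changes were larger, at 0.66 for Sqstm1 and 0.72 for Nbr1. Sqstm1 encodes p62, which polymerises through its PB1 domain, gathers ubiquitinated proteins into condensates and also captures the NRF2 inhibitor KEAP1. Its level was 594, 561 and 599 CPM in young replicates 1 to 3 and 718, 733 and 745 CPM in aged ones. Every aged library lay above every young one, with a log2 fold change of 0.33 ± 0.03 (SE; edgeR adjusted p = 4.29e-08). Nbr1 encodes a partner of p62 that shares its PB1 and ubiquitin-binding domains and recruits other receptors to the condensates. It stood at 195, 211 and 195 CPM in young libraries and at 263, 264 and 256 CPM in aged ones. The log2 fold change was 0.38 ± 0.04 (SE; edgeR adjusted p = 5.95e-08), and the 95% intervals of Nbr1 (0.30 to 0.46) and Sqstm1 (0.26 to 0.39) overlapped. In RefSeq (assembly GRCr8, names only) Brca1 and Tmem106a lie within 1000 bases of Nbr1 and a lncRNA gene overlaps it. Because the strand setting of the counting is not given, shared reads cannot be told apart. Brca1 had 1119 counts over all 6 libraries, far fewer than Nbr1, and a log2 fold change of 1.17 ± 0.16 (SE).

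Tax1bp1 and Optn encode receptors of the TBK1 arm, which bind ubiquitin chains on mitochondria, aggregates and bacteria, and both also restrain inflammatory signalling. Tax1bp1 was at 29.5, 35.5 and 28.6 CPM in young libraries, from 1023 to 1346 counts. In aged libraries it reached 255, 256 and 265 CPM, from 10339 to 11159 counts. The lowest aged library was thus far above the highest young one, and the log2 fold change was 3.05 ± 0.06 (SE; edgeR adjusted p = 1.3e-17). Optn was at 32.3, 36.9 and 32.8 CPM in young libraries and at 99.2, 94.8 and 95.5 CPM in aged ones. Its log2 fold change was 1.50 ± 0.06 (SE; edgeR adjusted p = 4.73e-14). A lncRNA gene overlaps Optn in RefSeq, and shared reads cannot be told apart. In Tax1bp1 and in Optn young replicate 2 was the highest young library, and without it the log2 fold changes were 3.15 and 1.56.

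Ncoa4 encodes the receptor that carries ferritin to the lysosome, where its iron is released; the protein was first described as a nuclear receptor coactivator. The gene was at 62.6, 81.8 and 64.0 CPM in young libraries and at 190, 193 and 196 CPM in aged ones. The aged libraries were close together and all more than 100 CPM above young replicate 2, the highest young library. The log2 fold change was 1.47 ± 0.07 (SE; edgeR adjusted p = 1.93e-12), and 1.61 without young replicate 2. In RefSeq the gene Pargl1 overlaps Ncoa4, and it was not analysed here.

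Tollip encodes an endosomal protein with a ubiquitin-binding CUE domain that also takes part in Toll-like receptor signalling. It was at 83.8, 82.2 and 83.3 CPM in young libraries and at 114, 110 and 111 CPM in aged ones, a narrow spread in each group. The log2 fold change was 0.42 ± 0.04 (SE; edgeR adjusted p = 3.51e-08). Wdfy3 encodes ALFY, a very large BEACH domain protein that links p62-bound aggregates to the autophagy machinery. It stood at 142, 143 and 148 CPM in young libraries and at 128, 135 and 121 CPM in aged ones. The groups were close without touching, and the log2 fold change was -0.17 ± 0.04 (SE; edgeR adjusted p = 0.00141), but 0.16 (adjusted p = 0.00256) with scaling by library size alone. Calcoco1 encodes a receptor for parts of the endoplasmic reticulum and Golgi, which binds the VAP proteins of the former. It was at 167, 161 and 160 CPM in young libraries and at 135 CPM in each aged library. The log2 fold change was -0.27 ± 0.04 (SE; edgeR adjusted p = 3.79e-06), but 0.07 (adjusted p = 0.0989) with scaling by library size alone. A lncRNA gene also overlaps Wdfy3 in RefSeq, with the same limit. Because of the scaling, no direction is given for Wdfy3 and Calcoco1 relative to a fixed amount of RNA.

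**Figure D2:**
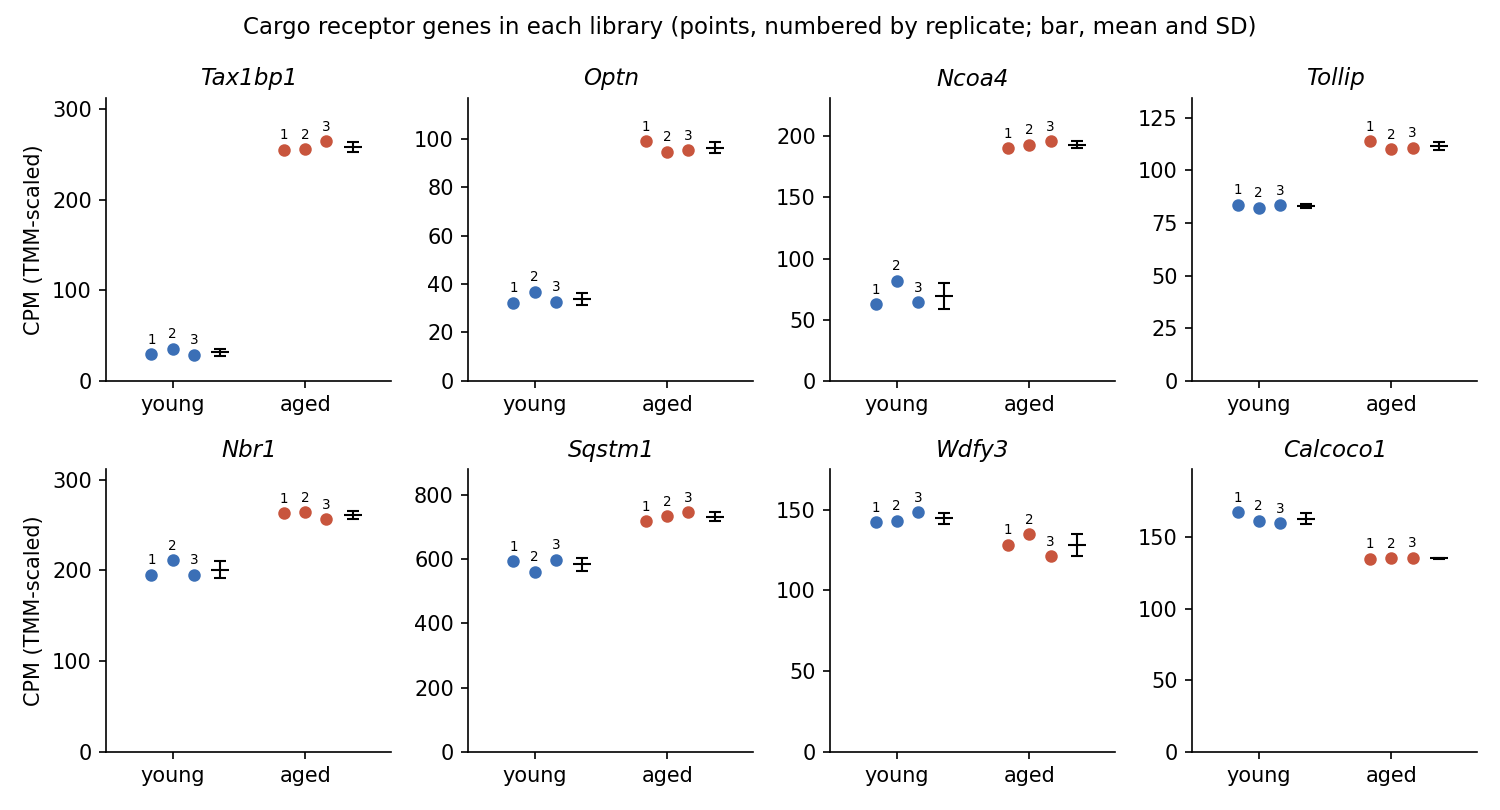
Level of each receptor gene in CPM (TMM-scaled, linear axis from 0) in every library, with points numbered by replicate and the mean ± SD of 3 libraries beside them. Tax1bp1, Optn and Ncoa4 show the widest gaps between young and aged libraries, and young replicate 2 lies above the other young libraries in these 3 genes and in Nbr1.

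The spread inside the young group was not even across the receptors. The coefficient of variation over young libraries was 15.4% for Ncoa4, 12.0% for Tax1bp1 and 7.37% for Optn, where counting error alone would give 1.98%, 2.96% and 2.83%. In aged libraries the same genes varied by 1.46%, 2.11% and 2.47%. Young replicate 2 exceeded the mean of young replicates 1 and 3 by 1.29-fold for Ncoa4, 1.22-fold for Tax1bp1 and 1.13-fold for Optn. Of all tested genes, 5.67% had a higher excess in that library than Ncoa4, 9.83% a higher one than Tax1bp1 and 19.3% a higher one than Optn. Tollip, Calcoco1 and Wdfy3 were there at 0.984, 0.987 and 0.985 times the mean of young replicates 1 and 3. The part of this library's difference in the results was not tested beyond leaving it out, after which all 8 receptor genes kept their direction and their call.

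Ratios between receptor counts within a library do not depend on how libraries are scaled, and they separated the receptors into groups. Per 100 Sqstm1 counts, Tax1bp1 had 4.96, 6.32 and 4.78 counts in young libraries and 35.5, 34.9 and 35.6 in aged ones. That is 6.65-fold higher, a fold taken from mean log2 ratios, as are the other folds of this paragraph. Optn had 5.44, 6.57 and 5.48 in young and 13.8, 12.9 and 12.8 in aged libraries, 2.27-fold higher. Ncoa4 had 10.5, 14.6 and 10.7 in young and 26.5, 26.3 and 26.3 in aged libraries, 2.24-fold higher. These 3 genes thus rose relative to Sqstm1 in every aged library against every young one. Calcoco1 went the other way, from 26.7 to 28.7 in young libraries down to 18.2 to 18.8 in aged ones, 1.51-fold lower. Wdfy3 likewise went from 24.0 to 25.5 down to 16.3 to 18.4, 1.42-fold lower. Tollip, at 13.9 to 14.6 and 14.9 to 15.9, was 1.07-fold higher without overlap. Nbr1 overlapped between the groups, at 32.6 to 37.6 and 34.4 to 36.6 (exact two-sided permutation p = 0.5, adjusted p = 0.5). For each of the other 6 ratios the exact two-sided permutation p was 0.1, the smallest that 3 against 3 libraries allow, and 0.117 adjusted over the 7 ratios, so no ratio could pass 0.05.

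**Figure D3:**
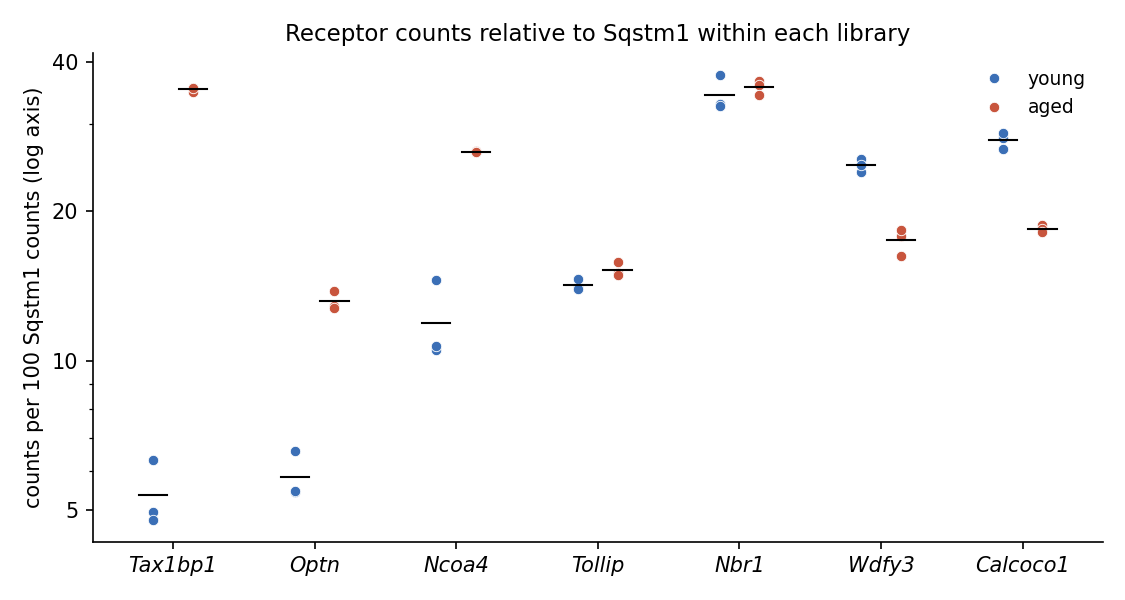
Counts of each receptor gene per 100 Sqstm1 counts of the same library, on a log axis. Points are libraries and bars the means of 3. Tax1bp1 goes from about 5.36 to 35.3 per 100 on average, Nbr1 overlaps between the groups, and Wdfy3 and Calcoco1 are lower in all aged libraries.

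The make-up of the reads assigned to receptor genes changed accordingly. Together the 8 genes had 46823 to 49795 counts in young and 75123 to 83762 in aged libraries, or 1307 to 1314 and 1904 to 1926 CPM. Tax1bp1 took 2.38% ± 0.281 of these reads in young and 13.5% ± 0.233 in aged libraries (SD, n = 3 each). Ncoa4 went from 5.30% ± 0.805 to 10.1% ± 0.0929 and Optn from 2.59% ± 0.185 to 5.03% ± 0.154. The share of Sqstm1 went from 44.6% ± 1.64 to 38.2% ± 0.484 and that of Calcoco1 from 12.4% ± 0.324 to 7.05% ± 0.0333. That of Wdfy3 was 10.9% to 11.3% in young and 6.30% to 7.02% in aged libraries. These are shares of reads and are not corrected for transcript length, so they compare a gene between groups and not the genes with each other.

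To show what stands before the genes that rose most and before Sqstm1, the 250 bases upstream of the RefSeq start are printed for 4 receptors (assembly GRCr8). All 8 symbols matched a promoter entry. The windows are chr10:35037751-35038000 on the minus strand for Sqstm1, chr17:78118619-78118868 on the plus strand for Optn, chr4:83152373-83152622 on the plus strand for Tax1bp1 and chr16:7401541-7401790 on the plus strand for Ncoa4. The Ncoa4 entry starts inside the gene's annotated span, so it belongs to an internal start. Capitals mark exact matches, on either strand, to the TATA box core TATAAA, the GC box GGGCGG, the E-box core CACGTG or the antioxidant response element TGACNNNGC, and no matches in these 4 windows overlap.
Sqstm1: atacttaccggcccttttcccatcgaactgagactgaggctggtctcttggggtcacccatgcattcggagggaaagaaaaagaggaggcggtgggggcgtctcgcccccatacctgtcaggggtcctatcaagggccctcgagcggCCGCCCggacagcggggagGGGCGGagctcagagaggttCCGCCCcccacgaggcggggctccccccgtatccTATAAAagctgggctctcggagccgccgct
Ncoa4: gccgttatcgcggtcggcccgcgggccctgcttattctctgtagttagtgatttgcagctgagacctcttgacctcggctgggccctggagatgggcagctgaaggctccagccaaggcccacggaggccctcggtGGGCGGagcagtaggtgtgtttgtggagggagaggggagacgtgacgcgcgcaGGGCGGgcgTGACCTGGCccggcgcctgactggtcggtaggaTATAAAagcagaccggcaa
Tax1bp1: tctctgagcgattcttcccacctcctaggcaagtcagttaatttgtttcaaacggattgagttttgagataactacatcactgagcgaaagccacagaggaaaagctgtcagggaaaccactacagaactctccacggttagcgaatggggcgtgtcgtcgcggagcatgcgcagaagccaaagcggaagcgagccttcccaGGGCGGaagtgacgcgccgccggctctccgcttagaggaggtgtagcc
Optn: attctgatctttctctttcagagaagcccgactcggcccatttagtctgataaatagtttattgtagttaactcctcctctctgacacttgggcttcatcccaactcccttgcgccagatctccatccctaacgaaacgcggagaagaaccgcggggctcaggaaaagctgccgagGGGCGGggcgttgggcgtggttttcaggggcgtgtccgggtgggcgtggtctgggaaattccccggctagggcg
Sqstm1 and Ncoa4 each hold a TATAAA, beginning 30 and 19 bases before the start, and no other receptor gene does. That core occurs in 12.9% of all 33469 RefSeq windows of this length and in 6.94% of the 12992 that belong to tested genes. The GC box was found in 6 of 8 receptor windows (30.5% of all windows, 54.3% of those of tested genes), and not in those of Tollip and Wdfy3. CACGTG, the core of the sites bound by the lysosomal regulators TFEB and TFE3, was in 0 of 8 windows (5.59% of all and 7.80% of those of tested genes). TGACNNNGC, the form of site bound by NRF2, was only in that of Ncoa4, 52 bases before the start (10.1% and 11.9%). The CCAAT box was only in that of Nbr1 (34.0% and 34.9%). A match describes letters and not binding, and 250 bases leave most regulatory sequence out of view.

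The Atg8 proteins are what the receptors bind on the autophagosome membrane. All 5 genes of the family fell (100%, against 41.8% of all tested genes), with a median log2 fold change of -0.67. With scaling by library size alone, 4 of them fell and Gabarapl1 was not called, at 0.053 (edgeR adjusted p = 0.256). Map1lc3a, encoding LC3A, went from 302, 281 and 299 CPM in young libraries to 64.6, 69.1 and 67.1 CPM in aged ones, a 4.39-fold fall (edgeR adjusted p = 1.04e-17). Gabarap fell 2.42-fold from 482 ± 2.47 to 199 ± 1.53 CPM, Map1lc3b 1.59-fold, Gabarapl2 1.56-fold and Gabarapl1 1.22-fold. Summed receptor counts per 100 summed Atg8 family counts were 93.2, 96.1 and 95.1 in young libraries and 284, 279 and 279 in aged ones. This ratio, chosen after the values were seen and given without a test, was 2.96-fold higher in aged cells.

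In a list of 6 genes for kinases that act on the receptors, their adaptors and a regulatory subunit, 5 were higher and 1 was lower (83.3% higher, against 44.7% of all tested genes). Tbk1 was at 11.8, 12.0 and 10.2 CPM in young libraries and at 35.0, 35.5 and 31.5 CPM in aged ones, a 3.0-fold rise (edgeR adjusted p = 4.65e-12). The TBK1 adaptor genes Tank, Azi2 and Tbkbp1 rose 3.70-fold, 1.43-fold and 7.56-fold, the last from only 0.518 ± 0.141 CPM. Casein kinase 2, which also phosphorylates receptors, was split: its catalytic subunit gene Csnk2a1 rose 1.70-fold and its regulatory subunit gene Csnk2b fell 1.89-fold. Optn counts per 100 Tbk1 counts, a ratio chosen after the values were seen, were 275, 308 and 320 in young and 284, 267 and 303 in aged libraries, so the groups overlapped.

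Genes for the initiation of autophagosomes and for Atg8 lipidation went both ways, with 5 of 12 higher, 6 lower and 1 not called. These are 41.7% and 50%, against 44.7% and 41.8% of all tested genes. Rb1cc1 encodes FIP200, the scaffold of the ULK1 kinase complex to which TAX1BP1 and p62 bind. Its level was 12.0, 15.9 and 11.4 CPM in young libraries and 115, 112 and 109 CPM in aged ones, an 8.55-fold rise (edgeR adjusted p = 6.73e-16). Tax1bp1 counts per 100 Rb1cc1 counts, also chosen after the values were seen, were 245, 224 and 251 in young and 221, 228 and 243 in aged libraries, which overlapped. Atg12, a ubiquitin-like protein of the lipidation complex, rose 2.25-fold, and Atg7, its activating enzyme, fell 2.32-fold. Scaled by library size alone, 7 of the 12 were higher and 4 lower.

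Of 12 genes that supply or handle ubiquitin, the signal these receptors read, 4 rose and 7 fell. These shares are 33.3% and 58.3%, against 44.7% and 41.8% of all tested genes. Rps27a, which encodes ubiquitin fused to a ribosomal protein, fell 2.18-fold, and it can share reads with processed pseudogenes. Stub1, encoding the chaperone-linked ubiquitin ligase CHIP, fell 3.66-fold from 164 ± 8.39 to 44.7 ± 0.846 CPM. Ubqln2, encoding a shuttle for ubiquitinated proteins, rose 4.11-fold from 42.6 ± 4.17 to 175 ± 5.26 CPM. Scaled by library size alone, 6 of these genes were higher and 6 lower.

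The NRF2 arm is fed by p62, which removes KEAP1, and is in turn known to drive the p62 gene. In aged cells 6 of the 9 genes listed for this arm were higher, 1 was lower and 2 were not called. That is 66.7% higher and 11.1% lower, against 44.7% and 41.8% of all tested genes. Nfe2l2, encoding NRF2, was at 45.9, 52.8 and 46.3 CPM in young libraries and at 263, 255 and 257 CPM in aged ones, a 5.34-fold rise (edgeR adjusted p = 1.71e-17). Its target genes Hmox1, Nqo1 and Slc7a11 rose 7.13-fold, 3.90-fold and 41.2-fold, the last from only 1.70 ± 0.298 CPM. Gclm and Txnrd1, named after their values were seen, were the 2 not called. Their log2 fold changes were 0.17 and -0.002 (edgeR adjusted p = 0.0506 and 0.95). Keap1, named after its value was seen, was the member that fell, at 55.9 ± 4.56 and 48.9 ± 1.96 CPM, a fall that did not stay with library size alone, where 9 of 9 were higher. The median log2 fold change of the list was 1.96, against 0.33 for Sqstm1.

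Among 9 genes of ferritin and iron handling, the field of Ncoa4, 6 rose and 3 fell (66.7% and 33.3%). Of all tested genes 44.7% were higher and 41.8% lower. Tfrc, encoding the transferrin receptor that imports iron, was at 9.42, 10.1 and 6.77 CPM in young libraries and at 215, 210 and 209 CPM in aged ones, a 24.1-fold rise (edgeR adjusted p = 3.28e-18). Ireb2, encoding an iron-sensing regulator of ferritin and transferrin receptor mRNAs, rose 4.40-fold. Slc11a2, encoding an iron importer of the plasma membrane and endosomes, fell 3.0-fold. The ferritin genes, named after their values were seen, moved far less, and both can share reads with pseudogenes. With TMM scaling the heavy chain gene Fth1 fell 1.34-fold and the light chain gene Ftl1 rose 1.10-fold. Their log2 fold changes, -0.42 and 0.14, are of the order of the 0.34 shift between the scalings. Both sizes therefore depend on the scaling, though library size alone again gave 6 higher and 3 lower genes in this list. Ncoa4 counts per 100 ferritin counts were 1.25, 1.69 and 1.27 in young and 4.28, 4.27 and 4.31 in aged libraries. That ratio was likewise chosen with its parts in view and carries no test.

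Genes for proteins that bind single receptors also differed in direction, with 6 of 14 higher, 7 lower and 1 not called. With library size alone 7 were higher and 6 lower. The TMM shares, 42.9% and 50%, are near the 44.7% and 41.8% of all tested genes. Itch, encoding a ubiquitin ligase that works with TAX1BP1 in an NF-kappaB-restraining complex, rose 11.4-fold from 8.71 ± 0.832 to 99.3 ± 2.03 CPM. In the same list Tnfaip3 fell 1.52-fold and Rnf11 rose 1.43-fold, both named after their values were seen. Traf6, encoding a ubiquitin ligase that p62 binds, rose 4.17-fold, and Prkci, encoding an atypical protein kinase C that pairs with the PB1 domain of p62, rose 2.47-fold. Vapb, encoding an endoplasmic reticulum anchor of CALCOCO1, fell 2.68-fold from 244 ± 8.53 to 90.9 ± 4.84 CPM. The other VAP gene of the list, Vapa, named after its value was seen, went the other way. It rose 1.51-fold from 130 ± 10.7 to 196 ± 3.05 CPM.

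Receptors anchored in mitochondrial or endoplasmic reticulum membranes went both ways, 6 of 14 higher and 6 lower (8 and 4 with library size alone). That is 42.9% in each direction, near the 44.7% and 41.8% of all tested genes. The list had a median log2 fold change of 0.03, against 0.40 for the soluble receptors. The difference between these medians was not tested. Sec62 and Retreg1, encoding receptors for the endoplasmic reticulum, rose 2.90-fold and 2.71-fold, and Atl3, encoding a receptor for its tubules, rose 2.02-fold. Fkbp8, encoding a mitochondrial receptor, fell 3.40-fold. The remaining list held other soluble receptors and relatives of the 8 genes. Of its 8 symbols 7 were in the file and 6 were tested. All 6 of these were higher (100%, against 44.7% of all tested genes). Lyst, Nbea and Lrba, which encode large BEACH domain proteins related to ALFY, rose 27.7-fold, 7.21-fold and 4.80-fold, whereas Wdfy3 itself had a log2 fold change of -0.17 (0.16 with library size alone). Nufip1, encoding a receptor for ribosomes, rose 3.54-fold from 5.61 ± 1.43 CPM. Calcoco2 was not analysed here.

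Of 6 transcription factor genes that control autophagy genes, 4 rose and 1 fell (66.7% and 16.7%, against 44.7% and 41.8% of all tested genes). Zkscan3, encoding a repressor of autophagy genes, rose 2.90-fold from 25.5 ± 0.565 to 73.8 ± 2.46 CPM, and Mitf, encoding a relative of TFEB, rose 4.0-fold from 5.57 ± 1.12 to 22.3 ± 1.06 CPM. Tfeb, named after its values were seen, was at 15.2 ± 1.01 and 14.3 ± 1.77 CPM in young and aged libraries and did not pass (edgeR adjusted p = 0.411). Scaled by library size alone, 5 of the 6 genes were called higher and 1 lower, so the lack of a call for Tfeb depends on the scaling. Tfe3, also named after its values were seen, was the gene that fell. It went from 85.3 ± 3.61 to 58.1 ± 2.46 CPM, 1.47-fold lower (edgeR adjusted p = 1.62e-08).

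**Figure D4:**
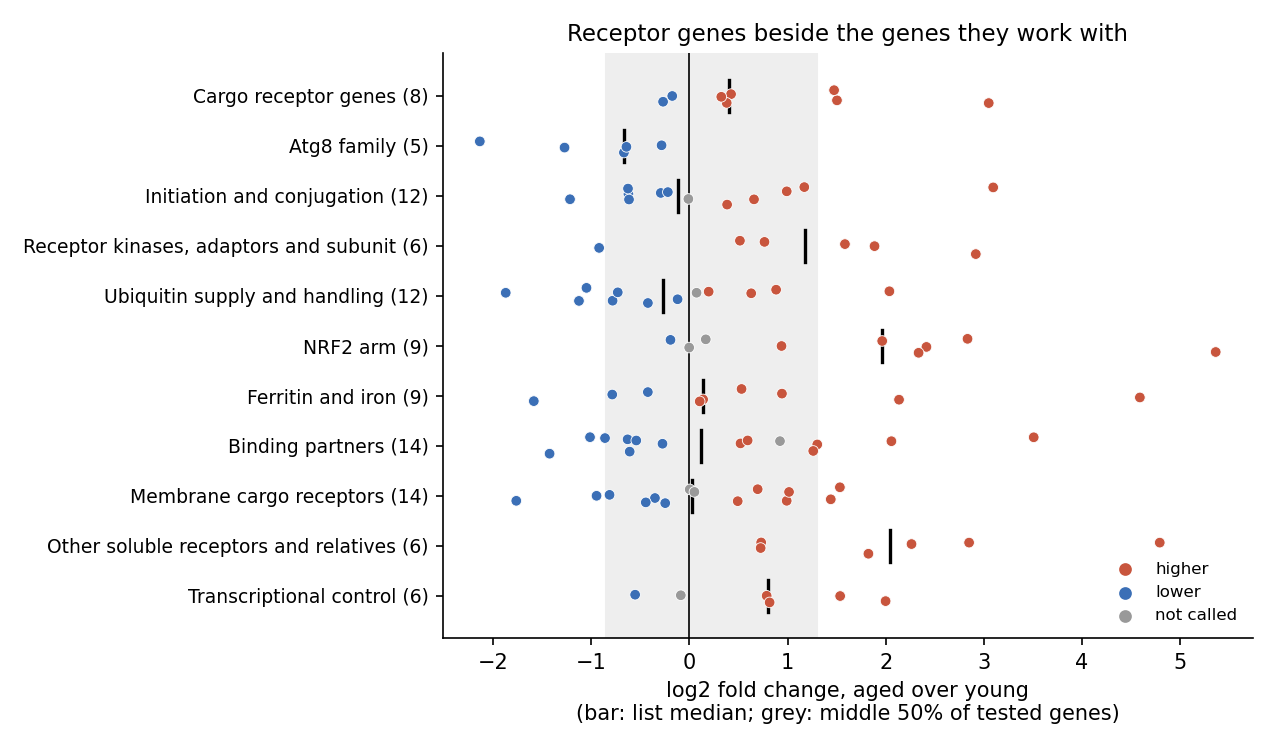
Log2 fold change, aged over young, of the receptor genes and of each partner list, with the number of tested genes in brackets. Points are genes, coloured by call, black bars are list medians and the grey band spans the middle 50% of all tested genes. Of all tested genes 44.7% were called higher and 41.8% lower. All 5 Atg8 family genes lie below 0 under the TMM scaling shown (Gabarapl1 does not with library size alone), while 5 of 6 genes for receptor kinases, adaptors and a kinase subunit and all 6 tested relatives lie above it.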

How the data were processed

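Raw, unnormalized read counts were deposited by the authors as a single table with 1 row per gene symbol and 1 column per library. Per the submitters' processing notes, fastp, HISAT2 and HTSeq were used, with no version or setting. Build, annotation and strand setting: not given in the sources used here. Columns were matched to samples by the library names in the labels.

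Counts of all symbols were fitted in edgeR 4.0.16 (R 4.3.3): filterByExpr (minimum count 10), TMM scaling, and the quasi-likelihood F test of aged against young, with no covariate. Benjamini-Hochberg adjustment covered 14273 genes, and an adjusted p under 0.05 was a call. CPM use TMM-scaled totals; standard errors are the fitted change over the square root of F. A count of 0 allows up to 3 counts, or 0.0688 to 0.0840 CPM, for counting error only. Within-library ratios were compared by exact permutation. The procedure was tested on simulated counts.

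The 8 receptor genes and the 10 partner lists (95 genes) were chosen with earlier results of these data known. Receptors, Atg8 and kinase genes were all named; from other lists, up to 4 called genes of smallest p with at least 2-fold change. 1 gene that this rule picks is not reported here. Other names were chosen after their values were seen. Alternatives were library-size and RLE scaling, DESeq2 1.42.0, limma-voom 3.58.1, no low-count filter, a replicate block and leaving out each library. Transcript lengths were not used, so levels are not compared between genes.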

Additional observations from a re-analysis of the deposited data

How the results depend on the processing

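Across 80 results recomputed under the alternatives, 918 of 925 values were scored as unchanged. For fold changes this meant the same direction and side of the threshold, and for ratios the same direction alone. Counts of called genes were scored as unchanged within a set limit, so they could still move. With library size alone, 7704 genes were called higher and 4654 lower, against 6375 and 5964 with TMM. The exceptions came from library-size scaling, which raised all changes by 0.34 on the log2 scale, and from another reference for the ratios. With library size alone Calcoco1 turned to 0.068, Wdfy3 to 0.16 and Gabarapl1 to 0.053, and 0 receptor genes were called lower. Against the other receptor genes in place of Sqstm1, the log2 ratio of Nbr1 turned to -0.20 and that of Tollip to -0.13, since that reference itself holds Tax1bp1, Optn and Ncoa4. Leaving out 1 library at a time gave log2 fold changes of 2.98 to 3.15 for Tax1bp1, 1.45 to 1.56 for Optn, 1.38 to 1.61 for Ncoa4 and -0.21 to -0.14 for Wdfy3. With the replicate number as a block, 6279 genes were called higher and 5883 lower, and the receptor genes again 6 and 2. Deviations of same-numbered libraries correlated at -0.01, 0.01 and 0.03, so no shared deviation was seen. With so few libraries per group, these values cannot settle whether the numbers pair them. Depth does not limit the receptor genes, whose lowest count in a library was 1023.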
